A study of Homo sapiens with 6 samples.

Results

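Cytochrome c (CYCS), the apoptosome genes APAF1 and CASP9, and the caspase regulators DIABLO and XIAP were examined in TCam-2 cells. TCam-2 is a long-established cell line derived from a human seminoma, a germ cell tumour of the testis. These 5 genes were taken from the 62700 genes of the deposited table. CYCS was chosen by its measured values, namely the share of each of its transcripts in the CYCS signal with and without RBMXL3, and the other 4 genes for their place in the same pathway. The 3 groups had 2 libraries each: WT, non-transduced TCam-2 cells; GFP, cells transduced with FLAG-tagged GFP; and RBMXL3, cells transduced with FLAG-tagged RBMXL3, an RNA-binding protein related to RBMX. GFP and WT were the controls for genes that differ in level or in splicing when RBMXL3 is overexpressed. Polyadenylated RNA was sequenced, and all 3 groups came from the same line grown in the same medium, with no drug treatment named in the labels. The promoter of the transgenes, and whether each transduced group was 1 clone or a pool, are not given in the sources used here.

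Cytochrome c is a small heme protein between the mitochondrial membranes that carries electrons from complex III to complex IV of the respiratory chain. In the intrinsic death pathway it leaves the mitochondrion and binds APAF1, which then assembles into a wheel-shaped complex, the apoptosome, that recruits and activates the initiator caspase-9. XIAP inhibits caspase-9 and the executioner caspases, and DIABLO (also called SMAC), released from mitochondria together with cytochrome c, relieves that inhibition.

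CYCS lies on the minus strand of chromosome 7, from 25120091 to 25125361 (GRCh38, GENCODE 29). It has 4 annotated transcripts there, and all 4 were listed in the transcript table. Each has the same exon with the start codon (25123951 to 25124127), and they differ before it and at the 3′ end. CYCS-201 has 3 exons and 4098 bases, of which 3759 lie in its last exon, which carries a long 3′ UTR. CYCS-202 has 3 exons and 974 bases: its first exon runs 204 bases further, to 25124996, into what is intron in CYCS-201. CYCS-203 has 4 exons and 799 bases: its first exon ends where that of CYCS-201 does, and a further exon of 155 bases (25124690 to 25124844) follows. CYCS-204 has 4 exons and 498 bases: its second exon has 126 bases, and the annotated transcript ends inside the coding sequence at 25123716.

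The exon junctions tell CYCS-201, CYCS-202 and CYCS-203 apart. Each is shown as the last 15 bases of the upstream exon in lower case followed by the first 15 of the downstream exon in capitals. The bases are from the GENCODE 29 transcript sequences (GRCh38, minus strand). The capitals AATTAAATATGGGTG open the exon with the start codon and are reached from 3 different upstream exon ends. The third line is the junction into the further exon of CYCS-203. The last line is also the junction of exon 2 to exon 3 in CYCS-204, so it does not tell CYCS-203 and CYCS-204 apart.
CYCS-201 exon 1 to exon 2: agcgactaaaaagagAATTAAATATGGGTG
CYCS-202 exon 1 to exon 2: cctaactagggacagAATTAAATATGGGTG
CYCS-203 exon 1 to exon 2: agcgactaaaaagagAGGGCAAAAGCTGTT
CYCS-203 exon 2 to exon 3: cccaggagatcacagAATTAAATATGGGTG

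The deposited values are TPM per transcript, so the junctions themselves were not counted here. The coding sequence was identical in CYCS-201, CYCS-202 and CYCS-203, at 105 codons without the stop codon, and the coding part of CYCS-204 is the start of it, at 101 codons. The 169 coding bases of the exon with the start codon (25123951 to 25124119) are shown because all 4 transcripts share them. Capitals mark the start codon and, from codon 15, the 15 bases that encode the heme attachment site, with its pair of cysteines followed by a histidine.
CYCS coding start: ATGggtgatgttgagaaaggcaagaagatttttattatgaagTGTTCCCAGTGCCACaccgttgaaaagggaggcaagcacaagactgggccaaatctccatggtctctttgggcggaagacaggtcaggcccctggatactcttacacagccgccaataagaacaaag

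The transcripts that carried most of the CYCS signal in the controls were nearly absent in the RBMXL3 libraries, and CYCS-202 stood in their place. In the controls CYCS-203 was at 313.7 and 296.3 TPM (WT) and at 165.5 and 308.5 TPM (GFP). In the RBMXL3 libraries it was listed at 0 and 2.77 TPM. CYCS-202 reached 37.6 and 24.1 TPM in the WT libraries, 4.51 and 1.41 TPM in the GFP pair and 299.6 and 292.1 TPM in the RBMXL3 pair. Neither transcript overlapped between RBMXL3 and the 4 control libraries. These values chose CYCS and are given as a description, with no test.

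As a share of the CYCS TPM, CYCS-202 made up 7.93% ± 2.51 (SD, n = 2 throughout) of WT, 0.884% ± 0.727 of GFP and 83.4% ± 0.365 of RBMXL3. The difference in share was 82.5 percentage points against GFP and 75.5 against WT. CYCS-203 made up 78.4% ± 3.66 of WT, 66.1% ± 21.0 of GFP and 0.394% ± 0.557 of RBMXL3. The wide spread of CYCS-203 in GFP came with CYCS-204, the annotated fragment that shares most of its exons: CYCS-204 was at 121.9 TPM in GFP replicate 1 and 34.9 TPM in GFP replicate 2. In WT it was listed at 0 and at 30.1 TPM, and it was listed at 0 in both RBMXL3 libraries. Added together, CYCS-203 and CYCS-204 took 81.0% and 83.5% of the CYCS TPM of the WT libraries, 89.0% and 90.0% for the GFP pair, and 0% and 0.788% for the RBMXL3 pair, so in both controls the sum varied less between replicates than either transcript did.

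**Figure D1:**
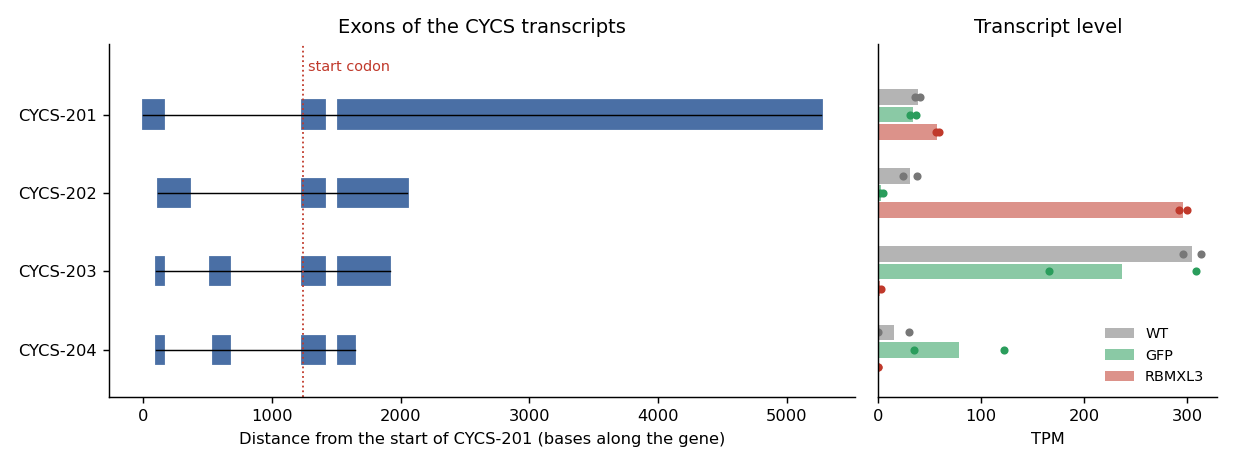
Left, exons of the 4 CYCS transcripts (boxes) by distance from the start of CYCS-201 in bases, with the start codon as a dotted line; right, TPM of each transcript, with bars for the mean of 2 libraries per group and points for the libraries. CYCS-202 reaches 299.6 and 292.1 TPM in RBMXL3, where CYCS-203 is at 0 and 2.77 TPM.

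The long transcript CYCS-201 was present in every library. It reached 36.1 and 40.4 TPM in the WT libraries, 31.0 and 36.6 TPM in the GFP pair and 58.5 and 56.5 TPM in the RBMXL3 pair. Both RBMXL3 libraries lay above all 4 controls, at 1.70 times the GFP mean and 1.5 times the WT mean, and its share of 16.2% ± 0.192 compared with 9.60% ± 0.0132 for GFP and 9.83% ± 0.727 for WT (SD, n = 2, description only).

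**Figure D2:**
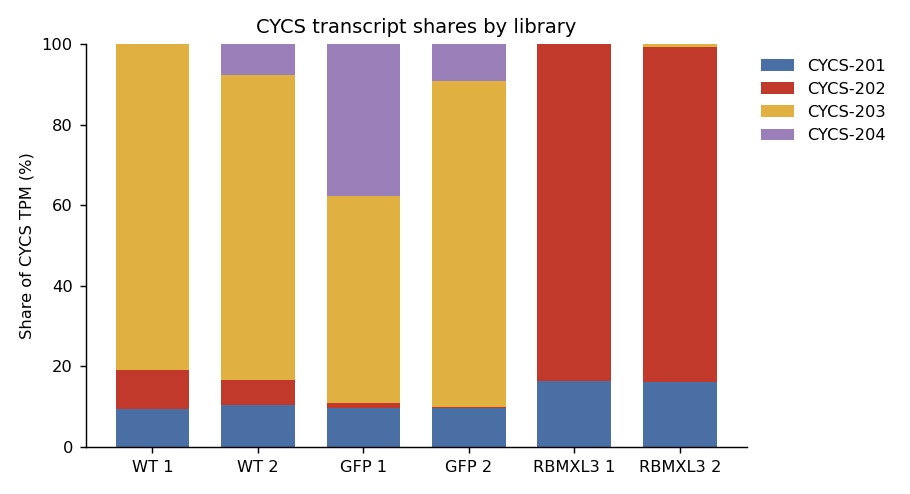
Share of the summed CYCS TPM (%) taken by each of the 4 transcripts in each library. CYCS-203 and CYCS-204 together fill between 81.0% and 90.0% of the 4 control bars, and CYCS-202 fills 83.7% and 83.1% of the RBMXL3 bars.

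The controls were also tested against each other on these shares. Their values were among those that chose CYCS, so this test is not independent of that choice. A transcript's share was tested with limma on its arcsine square root, over 36171 transcripts of 8873 genes, and a call required an adjusted p (Benjamini-Hochberg) below 0.05. None of the CYCS transcripts was called between GFP and WT: for CYCS-202, lower by 7.05 percentage points in GFP, the limma adjusted p was 0.318 and the unadjusted p 0.00131. In that comparison 0% of all transcripts were called, with 1718 at an unadjusted p under 0.05 and 161 called by diffSplice.

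The level of CYCS depended on the measure. The deposited gene table gives reads per gene divided by 1 size factor per library, called normalised reads here. CYCS showed 6646 and 6782 normalised reads in the WT libraries, 5299 and 6981 in the GFP pair and 8557 and 8008 in the RBMXL3 pair. Both RBMXL3 libraries were the highest of the 6, while the WT libraries lay between the GFP libraries. The log2 change was 0.44 ± 0.12 (SE) against GFP and 0.30 ± 0.12 against WT, as a description. Against GFP it became 0.25 when GFP replicate 1 was left out and 0.64 when GFP replicate 2 was.

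The summed TPM of the 4 transcripts did not show that order. It came to 387.4 and 390.9 in the WT libraries, 323.0 and 381.4 in the GFP pair and 358.1 and 351.3 in the RBMXL3 pair. The RBMXL3 libraries were thus below both WT libraries and between the GFP libraries, with log2 changes of 0.015 against GFP and -0.13 against WT. TPM counts molecules, and a long molecule yields more fragments than a short one. Multiplied by transcript length in kilobases and summed, the TPM came to 438.0 ± 4.0 (SD, n = 2) for WT, 369.9 ± 64.1 for GFP and 524.9 ± 9.59 for RBMXL3. These group means have the order of the group means of normalised reads, with log2 ratios of 0.51 against GFP and 0.26 against WT. TPM already divides the reads assigned to a transcript by its length. The product is therefore close to assigned reads by construction and is not an independent measure of CYCS. GFP replicate 2, at 415.2, lay below both WT libraries (435.2 and 440.8), while by normalised reads it lay above both. The part of transcript length in the gap between reads and TPM was not tested. CYCS-201 carried between 34.0% and 39.2% of that length-weighted signal in the controls and 45.1% and 44.7% in RBMXL3.

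**Figure D3:**
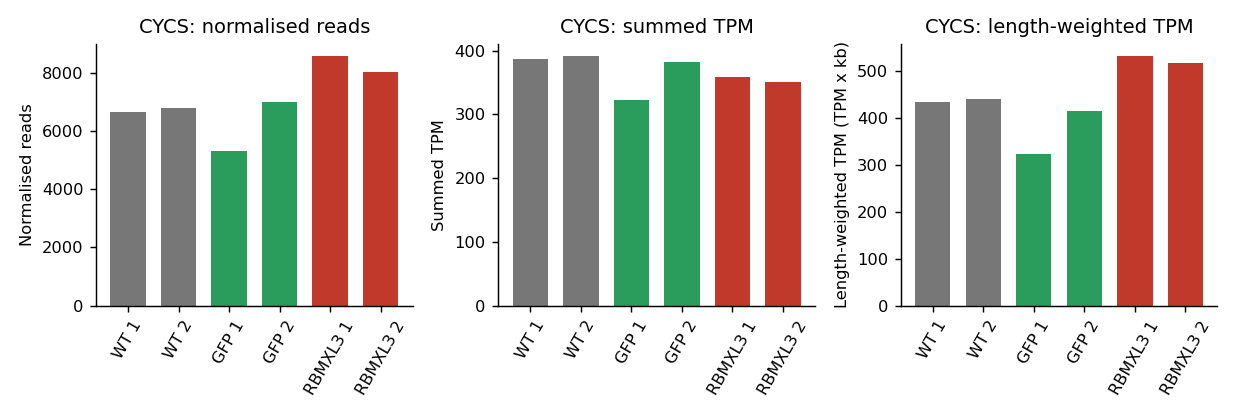
CYCS in each library as normalised reads, as summed TPM and as TPM multiplied by transcript length in kilobases. The RBMXL3 bars are the highest in the first and last panels and lie between the GFP bars in the middle panel.

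Between the controls, CYCS had a log2 change of -0.14 ± 0.12 in GFP against WT (limma adjusted p = 0.515). This change was -0.34 without GFP replicate 2 and 0.056 without GFP replicate 1, so its direction depended on which GFP library was kept. GFP replicate 1 was the library with the lowest normalised reads of CYCS, APAF1, DIABLO and XIAP. For APAF1 it was close to RBMXL3 replicate 1 (549.8 and 553.6). It was also the library with the smallest share of reads from mitochondrial genes, 1.31% against 2.02% to 3.02% in the other 5 libraries. The part of either in the other was not tested. The median absolute log2 difference between replicates over all genes was 0.18 in GFP, 0.12 in WT and 0.08 in RBMXL3.

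CYCS has many processed pseudogene copies, and how reads that match several copies were counted is not given in the sources used here. Of 42 pseudogenes with a CYCSP symbol, 38 had 0 reads in all 6 libraries. CYCSP6, on chromosome 2, had between 160.4 and 184.6 normalised reads and was the one that passed the filter on low values. CYCSP24 and CYCSP34 had at most 3.36 and 3.39 normalised reads. Reads on these copies were few beside those on CYCS, and CYCSP6 had log2 changes of -0.07 against GFP and -0.11 against WT, neither called.

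APAF1, the scaffold that cytochrome c binds (chromosome 12, 98645141 to 98735433, plus strand), was not called in any comparison. It showed 662.1 and 666.1 normalised reads in the WT libraries, 549.8 and 583.8 in the GFP pair and 553.6 and 653.4 in the RBMXL3 pair. The RBMXL3 libraries lay below both WT libraries and overlapped GFP. The log2 change was 0.08 ± 0.12 (95% interval -0.17 to 0.33) against GFP and -0.14 ± 0.12 (-0.39 to 0.11) against WT, with limma adjusted p-values of 0.653 and 0.393.

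The signal of APAF1 was split over long coding transcripts. APAF1-210, of 1248 codons, took 46.1% ± 5.04 (SD, n = 2) of the gene's TPM for WT, 68.2% ± 1.14 for GFP and 56.8% ± 4.93 for RBMXL3. APAF1-202, of 1205 codons, took 38.6% ± 2.05 in WT and 38.4% ± 1.87 in RBMXL3, and in GFP it was listed at 0 in replicate 1 and took 30.8% in replicate 2. In GFP replicate 1, APAF1-205, also of 1205 codons, held 31.0% and was listed at 0 in the other 5 libraries. APAF1-205 has the same internal exons as APAF1-202 and differs from it only at the ends. How reads were split between these models was not tested. APAF1-209 reached 11.98% in WT replicate 2, and APAF1-204, which is not annotated as coding, 5.48% in that library. At a gene level of 4.69 to 6.27 TPM these transcripts were each under 4 TPM, and neither tested transcript of APAF1 was called in any comparison.

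CASP9, the initiator caspase (chromosome 1, 15490832 to 15526534, minus strand), was read mainly through its short form. CASP9-202 has 5 exons and 266 codons and lacks exons 3 to 6 of the 9-exon, 416-codon CASP9-201, 450 bases in all. It corresponds to the short caspase-9 protein, which lacks most of the large catalytic subunit and is known to hold back the full-length enzyme. The junctions below show the difference: both start from the end of exon 2 at 15518110, and the capitals are exon 3 of CASP9-201 (from 15507907) or the exon that follows the skipped stretch in CASP9-202 (from 15495452).
CASP9-201 exon 2 to exon 3: gatttggtgatgtcgGTGCTCTTGAGAGTT
CASP9-202 exon 2 to exon 3: gatttggtgatgtcgAGCAGAAAGACCATG

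CASP9-202 reached 3.15 and 3.35 TPM in the WT libraries, 3.92 and 3.30 TPM in the GFP pair and 4.75 and 4.58 TPM in the RBMXL3 pair. Full-length CASP9-201 was at 0.626 and 0.317 TPM (WT), 0.305 and 0 (GFP), and 0.650 and 0.866 (RBMXL3). The short form thus exceeded CASP9-201 in all 6 libraries, and it took between 51.7% and 66.6% of the CASP9 TPM. CASP9-203 and CASP9-207 also carry exons 3 to 6 of CASP9-201, and CASP9-204 does with a longer exon 4. The levels of CASP9-202 and CASP9-201 alone therefore do not give the ratio of skipping to inclusion. Both RBMXL3 libraries had a higher CASP9-202 level and share than all controls. The share, 65.9% ± 0.854 (SD, n = 2) for RBMXL3, 62.4% ± 0.683 for GFP and 56.3% ± 6.46 for WT, did not pass the test (limma adjusted p = 0.886 against GFP and 0.702 against WT). CASP9-207, a shorter coding model, moved between 0% and 31.2% among replicates of the same group, CASP9-203 between 0% and 19.9%, and CASP9-204, annotated for nonsense-mediated decay, between 0% and 19.4%.

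CASP9 showed 179.5 and 137.6 normalised reads in the WT libraries, 181.1 and 164.2 in the GFP pair and 181.5 and 183.9 in the RBMXL3 pair. The RBMXL3 libraries were the highest of the 6, but WT replicate 1 and GFP replicate 1 lay close below them. The log2 change was 0.07 ± 0.15 (95% interval -0.25 to 0.40) against GFP and 0.19 ± 0.15 (-0.14 to 0.51) against WT, with limma adjusted p-values of 0.769 and 0.361. By summed TPM the RBMXL3 libraries were again the highest but stood further from the controls, at 7.14 and 7.01 against 5.33 to 6.23. The log2 changes in TPM, 0.26 against GFP and 0.25 against WT, were not called (limma adjusted p = 0.265 and 0.262).

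XIAP, the inhibitor (chromosome X, 123859724 to 123913979, plus strand), showed 927.1 and 1089 normalised reads in the WT libraries, 733.7 and 931.3 in the GFP pair and 1043 and 1105 in the RBMXL3 pair. Both RBMXL3 libraries lay above both GFP libraries and overlapped WT. The log2 change was 0.37 ± 0.13 (95% interval 0.09 to 0.64) against GFP, which did not pass after adjustment (limma unadjusted p = 0.0133, adjusted p = 0.0585). It was 0.09 ± 0.13 (-0.18 to 0.37) against WT (adjusted p = 0.613). Without GFP replicate 2, which leaves GFP with its lowest library, XIAP was called against GFP, at 0.53 (adjusted p = 0.00410), and GFP against WT, at -0.44 (adjusted p = 0.0187); the lone GFP library is then assumed to vary like the other groups. In summed TPM the RBMXL3 libraries overlapped both control groups and the GFP libraries lay below the WT libraries, at 18.3 and 14.8 (WT), 14.03 and 11.9 (GFP), and 12.4 and 16.1 (RBMXL3).

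XIAP-202, the full coding transcript of 497 codons and 8591 bases, reached 7.54 and 9.42 TPM in the WT libraries, 5.42 and 7.40 TPM in the GFP pair and 8.15 and 8.51 TPM in the RBMXL3 pair. It took from 38.7% to 65.6% of the gene's TPM. The rest lay mainly in short non-coding models: XIAP-210 ranged from 0% to 43.4%, XIAP-208 from 0% to 27.2% and XIAP-211 from 2.29% to 14.1%. The mean share of XIAP-209, another non-coding model, was 1.76% ± 0.258 for WT, 5.72% ± 1.80 for GFP and 11.9% ± 3.49 for RBMXL3, without passing the test (limma adjusted p = 0.233 against WT, unadjusted 0.0147). Coding models XIAP-201 and XIAP-204 held at most 7.11% and 7.82%.

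DIABLO, the antagonist of XIAP (chromosome 12, 122207663 to 122226568, minus strand), was the second most abundant of the 5 genes by TPM and the lowest by reads. Its summed TPM came to 103.8 and 102.8 in the WT libraries, 100.7 and 103.8 in the GFP pair and 83.3 and 85.0 in the RBMXL3 pair. The RBMXL3 libraries lay below all controls, with log2 changes of -0.28 ± 0.08 against GFP and -0.29 ± 0.08 against WT that did not pass (limma on log2(TPM + 1), adjusted p = 0.0861 and 0.0656). By reads it showed 61.8 and 61.2 in the WT libraries, 30.5 and 58.3 in the GFP pair and 55.4 and 61.0 in the RBMXL3 pair, with no such order. Those log2 changes were 0.29 ± 0.20 against GFP and -0.06 ± 0.20 against WT (limma adjusted p = 0.310 and 0.846), and without GFP replicate 2 that against GFP was 0.59 (adjusted p = 0.0333).

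The reads counted for DIABLO were few for its TPM. Per unit of length-weighted TPM, DIABLO had 0.408 reads, against a median of 16.1 over 9925 protein-coding genes, and stood at percentile 0.373 of them. The other 4 genes had 15.9 for CYCS, 19.3 for APAF1, 17.4 for CASP9 and 13.7 for XIAP, or 84.7% to 120% of that median. In GENCODE 29 all 1471 exon bases of DIABLO-207, its most abundant transcript, also belong to exons of other genes on the same strand, one of which carries the same symbol (ENSG00000284934). The opposite-strand gene B3GNT4 covers 61.9% of these bases. The other same-strand genes had 0 reads in all 6 libraries. Gene reads of DIABLO are therefore uncertain, and the TPM rests on transcript models that share sequence.

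DIABLO-207, of 239 codons, reached 65.1 and 66.1 TPM in the WT libraries, 62.1 and 68.7 TPM in the GFP pair and 60.6 and 57.5 TPM in the RBMXL3 pair. DIABLO-202, a model annotated for nonsense-mediated decay, reached 19.2 and 19.8 TPM in the WT libraries, 25.1 and 19.7 TPM in the GFP pair and 11.1 and 16.1 TPM in the RBMXL3 pair. The TPM of both was lowest in the RBMXL3 group, while the mean share of DIABLO-207 was highest there, at 70.2% against 64.0% in GFP and 63.5% in WT. Neither share passed the test (lowest limma adjusted p 0.482). DIABLO-212 ranged from 1.12% to 7.05% of the TPM, and DIABLO-206 was at 6.25% in WT replicate 1 and listed at 0 elsewhere. DIABLO-201 and DIABLO-203, below the 5% at which transcripts were named, were singled out after their values were seen. DIABLO-201 had the lowest adjusted p of the 15 tested transcripts of these genes. Its share was 4.92% and 4.97% in RBMXL3 against 1.80% and 1.56% in GFP (limma adjusted p = 0.217) and 2.49% and 2.61% in WT (0.406). DIABLO-203 was at 0.199 and 0.433 TPM in RBMXL3 and between 1.86 and 3.03 TPM in the controls. Its share had limma unadjusted p-values of 0.0217 against GFP and 0.0289 against WT (adjusted 0.260 and 0.314).

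**Figure D4:**
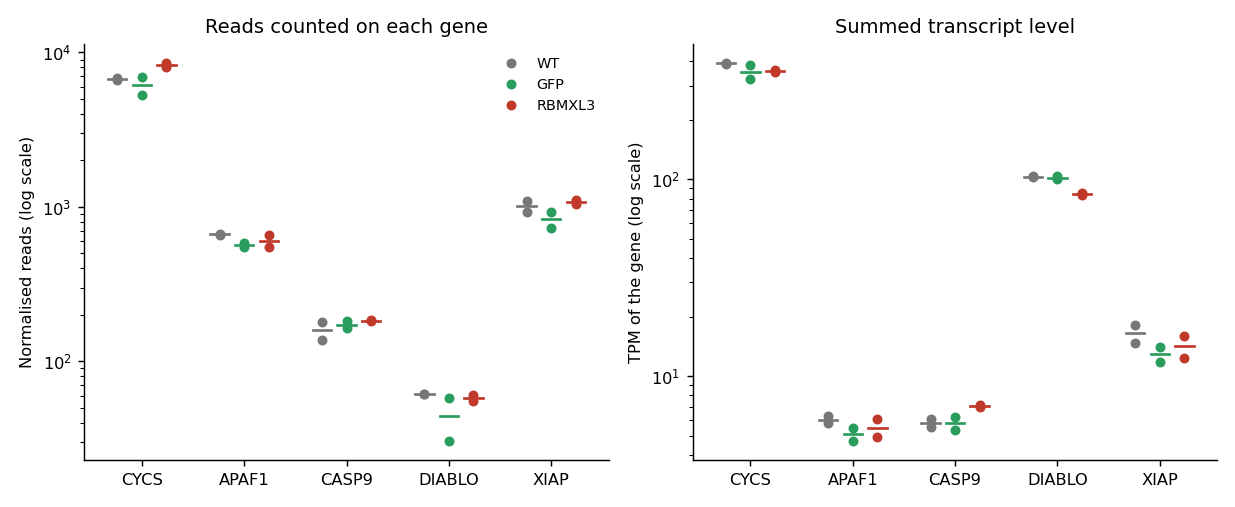
Normalised reads (left) and summed TPM (right) of the 5 genes on log scales; points are libraries and lines are means of 2 libraries per group. DIABLO is the lowest of the 5 by reads, from 30.5 to 61.8, and the second highest by TPM, from 83.3 to 103.8.

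Ordered by TPM, which is per length, the levels ran from CYCS (mean of 365.4 over the 6 libraries) and DIABLO (96.6) to XIAP (14.6), CASP9 (6.22) and APAF1 (5.53). CASP9 and APAF1 overlapped between libraries (5.33 to 7.14 and 4.69 to 6.27 TPM), while the lowest XIAP library, at 11.9 TPM, was above both. A gene was called, as for transcripts, at a limma adjusted p under 0.05. By reads, all 5 genes were among the 14292 that passed the filter on low values, and 0 of the 4 tested against RBMXL3 were called, where 20.9% of all genes were called against GFP and 29.9% against WT. The unadjusted p was under 0.05 for 1 of them, XIAP against GFP, and edgeR and DESeq2 on the recovered reads also called 0 of the 4. Between the controls 0 of the 4 were called, with 3.67% of all genes. Of 15 tested transcripts of the 4 genes, 0 were called against GFP (0.921% of all transcripts were) and 0 against WT (0.807%), with 2 in each at an unadjusted p under 0.05, as were 5044 and 4645 of all 36171 transcripts. By diffSplice 1 was called against GFP and 0 against WT, with 1609 and 1507 of all transcripts.

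Wider lists of the pathway were counted beside the background of all tested genes. Over all lists, the CYCS pseudogenes included, 71 genes were tested. Of these 16 were called against GFP, 24 against WT and 3 between the controls. Among all tested genes 20.9%, 29.9% and 3.67% were called in the same comparisons. Against GFP, 10.5% of all genes were called higher and 10.4% lower, and against WT 14.6% and 15.3%. Called in the same direction against both controls were 6.88% higher and 6.86% lower. For GFP against WT the values were 1.76% higher and 1.91% lower. The median log2 change of all genes was 0.00 against GFP and -0.01 against WT. Genes named below were called against both controls in the same direction, unless said to have been picked after their values were seen.

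The caspases that were called were lower in RBMXL3. Of 10 listed, 6 were tested: 0 were higher, 1 was lower against GFP and 4 were lower against WT, with median log2 changes of -0.22 and -0.33. None was called against both controls. Picked after their values were seen, the one lower against GFP was CASP6, an executioner (-0.35, limma adjusted p = 0.0496), and among those lower against WT were CASP8 (-0.46), the death receptor initiator, CASP10 (-0.37) and CASP2 (-0.30). CASP8 was as low in GFP as in RBMXL3, with 922.2 and 1058 normalised reads for GFP, 1012 and 959.2 for RBMXL3, and 1484 and 1248 for WT. The call of CASP6 was lost without any 1 of the WT or RBMXL3 libraries, and with edgeR, DESeq2, the replicate block, summed TPM or no filter on low values. The count against WT was 0 without WT replicate 1, without RBMXL3 replicate 1 or without RBMXL3 replicate 2, and 1 without WT replicate 2.

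Among other inhibitors of apoptosis, 3 of 7 were tested, and BIRC6, a very large ubiquitin ligase, was lower against WT (-0.64, limma adjusted p = 0.0181) and the only one called. Its call was lost without WT replicate 2 or either RBMXL3 replicate, and with DESeq2, summed TPM or no filter. BIRC2 and BIRC5 were not called. Of the 4 tested among 5 other mitochondrial death factors and inhibitor antagonists, HTRA2, a mitochondrial protease that also binds XIAP, was higher against WT (0.39, adjusted p = 0.0148), and none was called against GFP. Both genes were picked after their values were seen. HTRA2 showed 634.2 and 630.9 normalised reads in the WT libraries, 761.4 and 762.8 in the GFP pair and 852.3 and 815.9 in the RBMXL3 pair, with no overlap between groups, and its change against GFP was 0.13 (adjusted p = 0.414). The call of HTRA2 was lost without any 1 of the WT or RBMXL3 libraries.

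Of 9 tested modulators of the apoptosome, 2 fell against GFP and 3 against WT, and 0 rose. HSPA8, the constitutive cytosolic chaperone, showed 75852 and 67862 normalised reads in the WT libraries, 80638 and 70350 in the GFP pair and 38108 and 37531 in the RBMXL3 pair. It fell by 0.99 ± 0.13 on the log2 scale against GFP and by 0.92 ± 0.13 against WT (limma adjusted p = 0.000625 and 0.000430), and kept its call under all 14 alternatives in both comparisons. AVEN, an inhibitor of caspase activation that binds APAF1, fell by 0.44 ± 0.12 and 0.54 ± 0.12 (adjusted p = 0.0247 and 0.00683), from 329.9 and 310.4 normalised reads in GFP to 236.9 and 222.4 in RBMXL3. On summed TPM the AVEN changes were -0.13 and -0.30 and not called, and the call was lost without RBMXL3 replicate 2 in both comparisons (adjusted p = 0.228 and 0.0948) and without RBMXL3 replicate 1 against GFP (0.132). Against GFP it was also lost with DESeq2 (0.0526) and with no filter on low values (0.0673). The third against WT was HSP90AA1, picked after its value was seen (-0.46, adjusted p = 0.0274).

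Of 10 caspase substrates, all tested, 2 were lower in each comparison and 0 higher. With no filter on low values, or with the replicate block, no caspase substrate was called against GFP. SPTAN1, the spectrin chain that caspases cleave, fell by 0.36 ± 0.11 against GFP and 0.56 ± 0.11 against WT (limma adjusted p = 0.0385 and 0.00325). It went from 10677 and 8678 normalised reads in GFP to 7613 and 7366 in RBMXL3. Over the 14 alternatives its change against GFP ran from -0.51 to -0.018. Its call against GFP held in 5 of 14 alternatives and was lost when any 1 library other than GFP replicate 2 was left out, with adjusted p from 0.0641 (without WT replicate 2) to 0.281 (without RBMXL3 replicate 2); against WT it was lost without RBMXL3 replicate 2 (0.0555). Picked after the values were seen, DFFA, the inhibitor of the apoptotic nuclease, was lower against GFP (-0.30) and ROCK1 against WT (-0.34); ROCK1 was also lower in GFP against WT (-0.42).

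The BCL2 family forms and controls the outer membrane gate that lets cytochrome c out, and its called genes were all higher. Of 11 BCL2 family genes, all tested, 2 rose against GFP and 4 against WT, and 0 fell. PMAIP1 (NOXA), a death-promoting family member that binds the survival protein MCL1, showed 1082 and 992.5 normalised reads in the WT libraries, 894.5 and 1591 in the GFP pair and 2630 and 2711 in the RBMXL3 pair. It rose by 1.15 ± 0.19 and 1.35 ± 0.19 (limma adjusted p = 0.00191 and 0.000413). BBC3 (PUMA), which binds the survival members of the family, showed 304.0 and 312.1 in the WT libraries, 363.2 and 374.0 in the GFP pair and 659.2 and 711.1 in the RBMXL3 pair. It rose by 0.85 ± 0.12 and 1.09 ± 0.12 (adjusted p = 0.000698 and 6.94e-05) and kept its call under all 14 alternatives in both comparisons. The PMAIP1 change against GFP was 0.74 without GFP replicate 1 and 1.55 without GFP replicate 2. Its call against GFP was lost on summed TPM (0.74, adjusted p = 0.0581) and with no filter on low values (0.0590). BAX (0.37), which forms the gate, and BCL2L11 (BIM, 0.49) were higher against WT and were picked after their values were seen. Their changes were 0.09 and 0.24 against GFP, and 0.28 and 0.25 in GFP against WT, none called. The count against WT was 2 without WT replicate 1, RBMXL3 replicate 1 or RBMXL3 replicate 2.

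For the making of cytochrome c and its respiratory partners, 18 of 18 genes were tested, with 1 higher and 6 lower against GFP, and 3 higher and 3 lower against WT; on summed TPM 0 were called against GFP and 2 against WT. HCCS, the enzyme that attaches heme to cytochrome c, fell by 0.33 ± 0.10 and 0.36 ± 0.10 (limma adjusted p = 0.0282 and 0.0134), from 2539 and 2519 normalised reads for WT and 2375 and 2571 for GFP to 2015 and 1909. Its call was lost without either RBMXL3 replicate in both comparisons, and against WT also without either WT replicate (adjusted p from 0.0599 to 0.192 there). UQCRFS1, the iron-sulfur subunit of complex III, fell by 0.44 ± 0.09 and 0.26 ± 0.09 (adjusted p = 0.00615 and 0.0484), and the call against WT held in 3 of 14 alternatives, was lost without any 1 WT or RBMXL3 library, and that against GFP was lost without either RBMXL3 library (adjusted p = 0.123 and 0.0832). COX11, a copper chaperone of complex IV, rose by 0.53 ± 0.11 and 0.56 ± 0.11 (adjusted p = 0.00744 and 0.00340), from 996.5 and 1158 in WT to 1658 and 1537, but on summed TPM its changes were -0.088 and 0.048. Its call was lost without RBMXL3 replicate 1 in both comparisons (adjusted p = 0.106 and 0.0567), without RBMXL3 replicate 2 against GFP (0.0548) and without WT replicate 1 against WT (0.0603).

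The remaining genes of that list were picked after their values were seen. Those lower against GFP were the complex IV subunits COX5A (-0.56), COX4I1 (-0.47), COX5B (-0.39) and COX6B1 (-0.38). Against WT their changes were -0.23, -0.07, 0.19 and -0.06, none called. Each was above WT in GFP, by 0.33, 0.39, 0.58 and 0.32, and of these COX5B alone was called (limma adjusted p = 0.0267). Against WT, MT-CYB of complex III was lower (-0.78), and SCO2 (0.47) and SURF1 (0.33), assembly factors of complex IV, were higher. None of these was called against GFP, with changes of -0.29, -0.13 and -0.02. SCO2 was also higher in GFP than in WT (0.59). MT-CYB (-0.49) and SURF1 (0.35) moved the same way in GFP against WT without being called.

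Of 9 nuclear regulators of respiratory genes, all tested, 2 rose against GFP, and 2 rose and 1 fell against WT. TFAM, which packages and transcribes mitochondrial DNA, showed 1911 and 1845 normalised reads in the WT libraries, 1367 and 1893 in the GFP pair and 2608 and 2436 in the RBMXL3 pair. It rose by 0.64 ± 0.13 and 0.42 ± 0.13 (limma adjusted p = 0.00585 and 0.0302), but on summed TPM the changes were -0.023 and -0.19, below 0 in both. The call against WT was lost when any 1 WT or RBMXL3 library was left out (adjusted p from 0.103 to 0.185), and that against GFP without RBMXL3 replicate 1 (0.0585). GABPA (0.42, against GFP), ESRRA (0.51) and PPARGC1B (-0.33), both against WT, were picked after their values were seen. Against the other control their changes were 0.20, 0.17 and -0.16, none called.

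**Figure D5:**
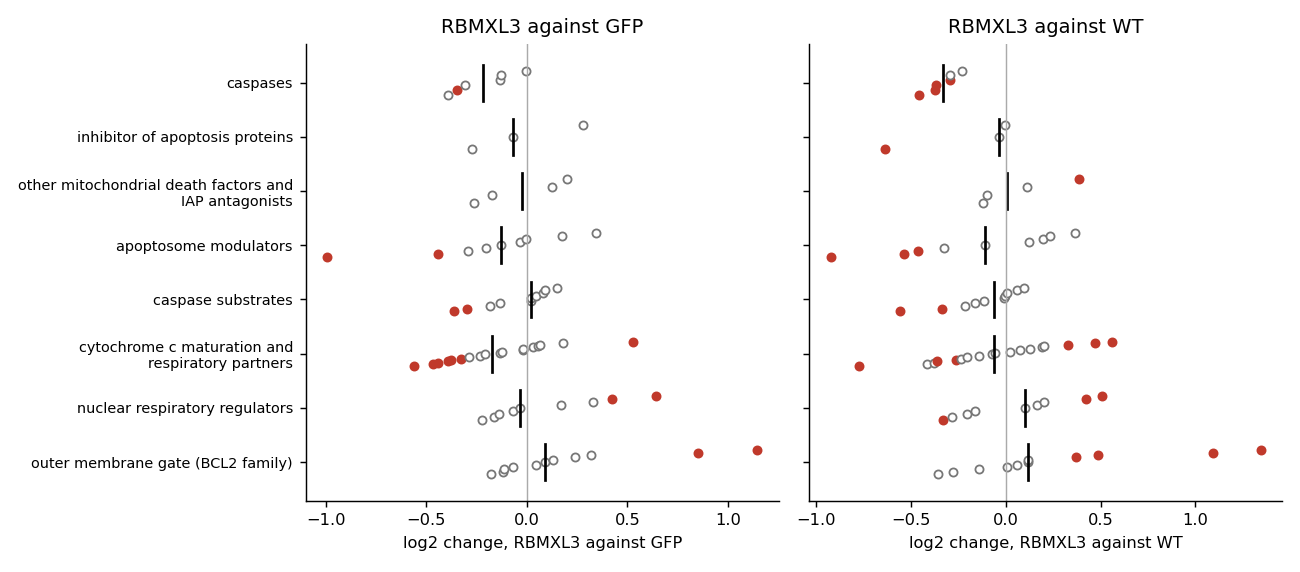
log2 change of each tested gene of 8 pathway lists in RBMXL3 against GFP (left) and against WT (right); filled points passed a limma adjusted p under 0.05, open points did not, and the black line is the list's median. The caspase medians lie at -0.22 and -0.33, and the BCL2 family points farthest to the right are PMAIP1, at 1.15 and 1.35, and BBC3, at 0.85 and 1.09.

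Over the 6 libraries, the transcripts of other genes whose share was nearest to that of CYCS-202 were sought among 89240 transcripts of genes with at least 5 TPM in every library, by the root mean square difference in percentage points. These were PFDN4-202 (5.91), CEP57-202 (8.90), DLEU2-207 (9.72), SNX14-203 (15.6) and COX6C-207 (16.1). PFDN4-202, a model of a prefoldin subunit gene annotated for nonsense-mediated decay, took 75.1% and 80.8% in RBMXL3 and at most 0.126% in the controls. COX6C-207, a model of a complex IV subunit gene that is annotated likewise, took 59.3% and 54.5% in RBMXL3 and was listed at 0 in all 4 controls. By normalised reads, the genes nearest to CYCS among 10743 were CBX3, UGGT2 and ID4, with root mean square differences of 0.03, 0.04 and 0.04 on the centred log2 scale. These matches were found by ranking and carry no test.

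Total reads were 17685680 and 21023355 in RBMXL3 and between 23080795 and 29318007 in the controls. RBMXL3 had 84 and 68 reads in the RBMXL3 libraries and 0 in all 4 controls, where 3 reads is the limit that a count of 0 allows, for counting error only. The 10 seminoma and primordial germ cell markers, POU5F1 and KIT among them, were read in all libraries and summed to between 108685 and 127334 normalised reads. Markers of other cell types summed to at most 1.06 for leukocytes (2 genes, CD3E at 0), 4.23 for yolk sac tumour (2, AFP at 0), 302.6 for Sertoli cells (2), 1544 for embryonal carcinoma (3, mostly DNMT3L, with SOX2 at most 34.2) and 13093 for fibroblasts (2, mostly COL1A2). In bulk RNA, fewer cells of a type and less RNA per cell cannot be told apart. The labels do not say whether the 2 libraries of a group came from separate cultures, so p-values measure the spread between these libraries, and a difference in preparation between groups cannot be told apart from the group.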

How the data were processed

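Polyadenylated RNA of 6 TCam-2 libraries was prepared with a stranded mRNA kit, per the labels' protocols. The submitters' processing notes name Trim Galore 0.6.10, STAR 2.7.11a, DESeq2, Salmon 1.10.2 and GRCh38/hg38. The read counter, its strand setting and the annotation are not given in the sources used here. The deposited gene values are a normalised signal: all 145320 nonzero values (100%) are whole reads, within 0.01 read, times 1 factor per library. The deposited transcript values are TPM by the authors, which keep no depth.

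Gene values were divided by 1 common factor, 23.9, to the scale of CPM, because the planned test assumed CPM. Genes at 1 or more in at least 2 libraries (14292) were tested as log2(value + 1) with limma 3.58.1 (R 4.3.3; trend, all 6 libraries, 3 groups, no covariate, two-sided, Benjamini-Hochberg over all genes). Fold changes on this scale understate changes of low genes, and printed reads are the deposited values. Transcripts that reached 1 TPM in 2 or more libraries, and whose gene had 2 or more of them, were tested on the arcsine square root of their share. Where no shares are tested, TPM changes are limma on log2(summed TPM + 1). The scripts were tested on simulated data.

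Transcripts were matched to GENCODE 29 (GRCh38) by unversioned identifier: 80.0% matched, with 94.7% to 95.1% of the TPM. Some of the authors' transcript versions are newer, so lengths and exons may differ slightly, and models not matched were left out.

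The 5 genes and the lists were chosen with earlier results of these data known. Named were the 5 genes, their transcripts with at least 5% of the gene's TPM in any library, up to 4 genes per list called the same way against both controls, the 3 CYCS pseudogenes with most reads, and the 5 transcripts and 3 genes nearest to CYCS. Alternatives were the pseudocount, filters, quantile normalisation, edgeR 4.0.16 and DESeq2 1.42.0 on recovered counts, summed TPM, diffSplice, replicate blocks and leaving out each library, where the lone library of that group is assumed to vary like the other groups. The values of 1 gene of the caspase list are not reported here.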

Additional observations from a re-analysis of the deposited data

How the results depend on the processing

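For CYCS-202, chosen on its share, leaving out 1 library gave differences of 82.0 to 83.0 percentage points against GFP and 73.7 to 77.2 against WT. Counts follow as triplets, RBMXL3 compared first with GFP, then with WT, and last the controls with each other; the cause of a change was not tested. Genes called numbered 2986, 4271 and 524, and with no filter on low values 950, 2327 and 0, on summed TPM 988, 1638 and 0, and leaving out 1 library from 658 to 4313, from 1428 to 6163 and from 0 to 2780. Between the controls quantile normalisation gave 327. The 2986, 4271 and 524 genes were 20.9%, 29.9% and 3.67% of all tested genes, and the pathway lists held 71 tested genes. The pathway genes called numbered 16, 24 and 3, with no filter 4, 11 and 0, on summed TPM 4, 10 and 0, and leaving out 1 library 3 to 26, 4 to 31 and 0 to 21; between the controls quantile normalisation gave 1 and DESeq2 6. By list, leaving out 1 library gave, against GFP and against WT, 0 to 10 and 0 to 9 calls among cytochrome c maturation genes and partners, 0 to 4 and 0 to 3 among nuclear regulators, 1 to 3 and 1 to 5 among apoptosome modulators, 0 to 3 and 0 to 3 among caspase substrates, 0 to 2 and 0 to 4 among caspases, 0 to 2 and 0 to 1 among inhibitors of apoptosis, and 2 to 3 and 2 to 5 in the BCL2 family. For APAF1, CASP9, DIABLO and XIAP, leaving out 1 library gave 0 to 2 calls against GFP and 0 to 2 between the controls, the 2 being DIABLO and XIAP without GFP replicate 2. Transcripts called numbered 333, 292 and 0. The untransformed share gave 142 and 142 in the RBMXL3 comparisons, coding transcripts alone 148 and 159, no filter on the transcript 192 against WT, log2(TPM + 1) 495 against WT, and diffSplice 1609, 1507 and 161. Leaving out 1 library gave 0 to 331, 0 to 176 and 0 to 3 transcripts. diffSplice called 1 transcript of the 4 genes against GFP.

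On summed TPM directions turned for CYCS against WT (-0.13), DIABLO against GFP (-0.28), XIAP against WT (-0.20), CASP9 in GFP against WT (-0.0080), COX11 against GFP (-0.088) and TFAM (-0.023 against GFP and -0.19 against WT), of which COX11 (0.53) and TFAM (0.64 and 0.42) had been called on reads. Leaving out 1 library turned APAF1 against GFP (-0.032 without RBMXL3 replicate 2, at most 0.20), CASP9 in GFP against WT (-0.051 without WT replicate 2, at most 0.28), DIABLO against GFP (-0.0028 without GFP replicate 1, at most 0.59), XIAP against WT (-0.020 without WT replicate 1, at most 0.21) and CYCS in GFP against WT (0.056 without GFP replicate 1, at least -0.34).

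Replicates of equal number did not deviate together: the correlations over 14292 genes were -0.156 for WT and GFP, 0.034 for WT and RBMXL3 and -0.094 for GFP and RBMXL3. With the replicate block 2386, 3697 and 191 genes, 8, 9 and 0 transcripts and, between the controls, 1 pathway gene were called. A crossed replicate block for WT and GFP, chosen after seeing the data, gave 1049 genes between the controls.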
